A study of Mus musculus with 32 samples.

Results

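Protein folding in the endoplasmic reticulum (ER) and the unfolded protein response were examined in brown adipose tissue through 36 named genes, which are 11 chaperones and cochaperones, 6 genes of disulfide bond formation, 5 genes of ER-associated degradation, 4 genes of the IRE1 and ATF6 arms and 10 genes of the eIF2α kinases and the ATF4 arm. A gene was included when a probe of the array carried its name and passed the filter on dim spots, which held for 36 of 36 names. They are 36 of 24523 gene names measured, and 63 of their 69 probes were among the 37306 probes kept. For each gene the probe of highest mean intensity is given, which was well above background on all 32 arrays for 36 of 36 genes, and values are log2 intensities, which allow a probe to be compared between groups but not with another probe.

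Secreted and membrane proteins enter the ER unfolded, where chaperones such as BiP and calreticulin hold them and protein disulfide isomerases join their cysteines. Proteins that fail to fold are drawn back to the cytosol and degraded. When unfolded protein accumulates, the membrane sensors IRE1, ATF6 and PERK raise the capacity for folding and degradation, and PERK also slows translation by phosphorylating eIF2α, which favours translation of the transcription factor ATF4. The kinase GCN2 reaches ATF4 by the same step when amino acids run short, so the ATF4 targets also report on amino acid supply and are called the integrated stress response. In brown adipose tissue this machinery serves lipid synthesis, secretion and the long bouts of heat production to which the tissue is exposed.

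The arrays came from male C57BL6/J mice in 4 groups of 8. Total ChREBP KO mice (ChREBPtotal_KO in the labels) lack both isoforms of the glucose-responsive transcription factor encoded by Mlxipl, and ChREBPβ KO mice (ChREBPbeta_KO) carry a CRISPR/Cas9 deletion of exon 1b of that gene and so lack its β isoform. Each was compared with WT littermates of its own line (ChREBPtotal_WT and ChREBPbeta_WT). All 32 mice, WT included, were fasted for 24 hours and then refed for 18 hours with food and water containing 20% glucose, so no fasted or unstressed state was measured. Both deletions were present in every tissue, and the age of the mice was not given in the sources used here.

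Per array, 64.4% to 71.1% of spots passed the flag for signal above background. The 12 brown adipocyte markers were well above background on all arrays. Mlxipl fell by 2.477 on the log2 scale in total ChREBP KO and fell by 1.498 in ChREBPβ KO, each against WT of the same line (limma adjusted p 2.02e-24 and 7.09e-17). Markers of other tissues were also detected on the arrays. Whether they came from neighbouring tissue or from the fat depot itself was not tested. The mean log2 intensity of 10 skeletal muscle markers ranged from 13.20 to 16.53 in total-line WT and from 14.72 to 16.16 in total ChREBP KO, but from 6.40 to 12.52 in ChREBPβ-line WT and from 6.45 to 11.98 in ChREBPβ KO. The mean of 10 hepatocyte markers ranged from 6.27 to 11.18, 6.18 to 9.03, 6.37 to 13.04 and 6.26 to 12.70 in the same order. In total ChREBP KO against WT, 0 of 10 muscle markers were called, while 1 of 10 hepatocyte, 4 of 6 fibroblast and 3 of 6 endothelial markers were lower (medians -0.94, -0.60 and -0.22), 6 of 12 brown adipocyte markers were higher and 2 lower, 2 of 8 lymphocyte and macrophage markers were lower and 1 higher, and 1 of 5 white adipocyte and 1 of 5 plasma cell markers were higher. In ChREBPβ KO 2 of 12 brown adipocyte markers were higher and 0 of the others were called, and 0 of 5 blood markers were called in either line. Of all genes, 22.9% were called higher and 21.1% lower in total ChREBP KO, and 2.70% were called in ChREBPβ KO. The mean level of the plasma cell list, the cells richest in ER, stayed between 5.93 and 6.73 on all arrays. Their part in the values below was not tested. In tissue RNA, fewer cells of a type and less RNA per cell cannot be told apart.

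The promoters are given first, since genes of the response are usually sorted by the elements they carry. Known control elements of the response are ERSE, bound by ATF6 with NF-Y and written here as CCAAT and CCACG with 9 bases between them, and ERSE-II, written as ATTGG and CCACG with 1 base between them. UPRE, a site of XBP1 and ATF6, was searched as TGACGTGG, the C/EBP-ATF element CARE of ATF4 as TGATGNAA and the E-box, which in paired form makes the ChREBP element, as CACGTG. The search covered both strands of the 250 bases before the start site in RefSeq windows of GRCm38.p6, which were at hand for 33 of the 36 genes, 2 of them under a newer symbol. Atf6, Hyou1 and Manf had no window. ERSE letters were found in 9 of 33 genes (Hspa5, Hsp90b1, Calr, Canx, Dnajc3, Creld2, Pdia6, Ero1lb and Syvn1), against 0.113% of the 32851 windows in the table. ERSE-II letters stood in Herpud1 alone, against 0.0304% of all windows. CARE letters were found in Herpud1, Asns and Chac1 against 3.45% of windows, E-box letters in Calr, Dnajb9 and Atf6b against 6.02%, and UPRE letters in 0 of 33 genes against 0.563%. ERSE, ERSE-II and, on its other strand, UPRE share the letters CCACG, and no gene held both ERSE and ERSE-II. Of the 9 genes with ERSE letters, 3 were called higher and 2 lower in total ChREBP KO and 0 in ChREBPβ KO (limma), where 1 of the 9, Hspa5, had an unadjusted p under 0.05 (0.0232). Of all genes, 44.1% were called in total ChREBP KO and 2.70% in ChREBPβ KO. A match of letters is a description and does not show that a factor binds there. The 36 genes were named for the response that these elements control, so their shares are no separate finding. A gene counted when any of its windows matched, while the percentages count windows.

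The stretches of 4 genes with different responses are printed 5′ to 3′ in the direction of the gene, with the matched letters in capitals. Hspa5 and Dnajc3 both hold ERSE letters and changed in opposite directions in total ChREBP KO, Herpud1 holds ERSE-II and CARE and was higher in both KO lines, and Asns holds CARE close to its start and was higher in total ChREBP KO.
Hspa5, chr2:34771840-34772089, plus strand: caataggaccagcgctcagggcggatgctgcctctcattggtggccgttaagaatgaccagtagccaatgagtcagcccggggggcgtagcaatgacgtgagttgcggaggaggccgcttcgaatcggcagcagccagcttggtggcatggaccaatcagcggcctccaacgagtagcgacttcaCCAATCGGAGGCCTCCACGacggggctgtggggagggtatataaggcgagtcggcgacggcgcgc
Dnajc3, chr14:118937682-118937931, plus strand: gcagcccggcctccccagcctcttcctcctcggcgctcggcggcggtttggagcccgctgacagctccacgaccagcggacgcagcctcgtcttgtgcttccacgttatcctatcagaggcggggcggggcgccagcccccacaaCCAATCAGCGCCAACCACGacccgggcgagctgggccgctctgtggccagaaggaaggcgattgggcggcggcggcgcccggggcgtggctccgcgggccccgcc
Herpud1, chr8:94386179-94386428, plus strand: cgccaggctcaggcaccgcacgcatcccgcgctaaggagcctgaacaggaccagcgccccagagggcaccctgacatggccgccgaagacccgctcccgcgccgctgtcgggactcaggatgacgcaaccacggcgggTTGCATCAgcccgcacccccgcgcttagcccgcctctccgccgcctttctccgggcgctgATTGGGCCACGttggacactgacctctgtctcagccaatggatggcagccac
Asns, chr6:7693210-7693459, minus strand: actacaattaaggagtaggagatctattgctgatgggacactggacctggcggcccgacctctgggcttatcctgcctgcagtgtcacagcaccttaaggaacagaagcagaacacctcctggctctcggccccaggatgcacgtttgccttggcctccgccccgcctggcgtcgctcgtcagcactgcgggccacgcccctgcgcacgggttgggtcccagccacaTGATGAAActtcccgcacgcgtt
The ERSE letters of Hspa5 lie at -65 to -47 from the start site and those of Dnajc3 at -105 to -87. In Herpud1 the ERSE-II letters lie at -52 to -42 and the CARE letters, on the opposite strand, at -112 to -105. The CARE letters of Asns lie at -23 to -16.

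Loss of both isoforms was accompanied by changes of both signs in the folding and stress genes, with the largest increases in Asns and Sesn2 of the ATF4 arm and the largest decrease in Atf5 of the same arm. Of 36 genes, 19 were called at a limma adjusted p under 0.05, 8 higher and 11 lower. This share of 52.8% stood beside 44.1% of all 24523 genes, 22.9% higher and 21.1% lower, so that the count by itself does not set these genes apart. The median log2 fold change of the 36 genes was -0.01 and that of all genes was 0.01. The 8 KO and 8 WT arrays did not overlap for 11 of 36 genes, against 16.6% of all genes. Among the 19 called genes, all 8 KO arrays lay on 1 side of the WT mean in 17, and 18 had the same sign within each of 4 wash batches. The exception was Pdia4, whose difference within a wash batch ran from -0.55 to 0.04. Such counts rest on the arrays that gave the calls and are no separate test of them, and wash batch 2 held 1 KO array. Within wash batches Asns ran from 1.23 to 1.45, Sesn2 from 1.11 to 1.43, Atf5 from -1.10 to -0.75, Herpud1 from 0.49 to 0.68 and Edem1 from 0.44 to 0.58. On the slide that held 1 array of each group, KO minus WT was 1.33 for Asns, 1.38 for Sesn2 and -0.97 for Atf5.

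Loss of the β isoform alone was accompanied by higher values of Edem1, Herpud1, Sesn2 and Trib3, and no gene of the 36 was called lower. The 4 calls are 11.1% of the genes, against 2.70% of all genes, 1.37% higher and 1.33% lower. A further 9 had an unadjusted p under 0.05, which makes 13 of 36 in all, beside 3458 of all 24523 genes. The median log2 fold change was 0.08 against -0.003 for all genes. The 36 genes were chosen with earlier results of these data known, so these shares are no independent finding. The paper lists Sesn2 and Trib3 among genes upregulated in brown fat of its ChREBPβ-deficient mice. The arrays of the groups overlapped for 36 of 36 genes, and were separate for 0.432% of all genes. In each of the 4 called genes all 8 KO arrays exceeded the WT mean, and the sign was the same in 4 of 4 wash batches. These counts come from the arrays that gave the calls and are no separate test of them. Wash batches 1 and 3 held 1 WT array of this line and wash batch 4 held 1 KO array. Within wash batches Edem1 ran from 0.18 to 0.76, Herpud1 from 0.15 to 0.50, Trib3 from 0.21 to 1.09 and Sesn2 from 0.12 to 0.86. On the 2 slides that held an array of each group, KO minus WT was 0.44 and 0.47 for Edem1, -0.0015 and 0.51 for Herpud1, 0.03 and 0.39 for Trib3 and 0.89 and 0.71 for Sesn2. With the slide as a fixed block 1 gene, Edem1, was called, and with the 2 groups of the line fitted alone Edem1 and Trib3 were called. Of all genes, 0.449% and 1.38% were called in these fits.

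**Figure D1:**
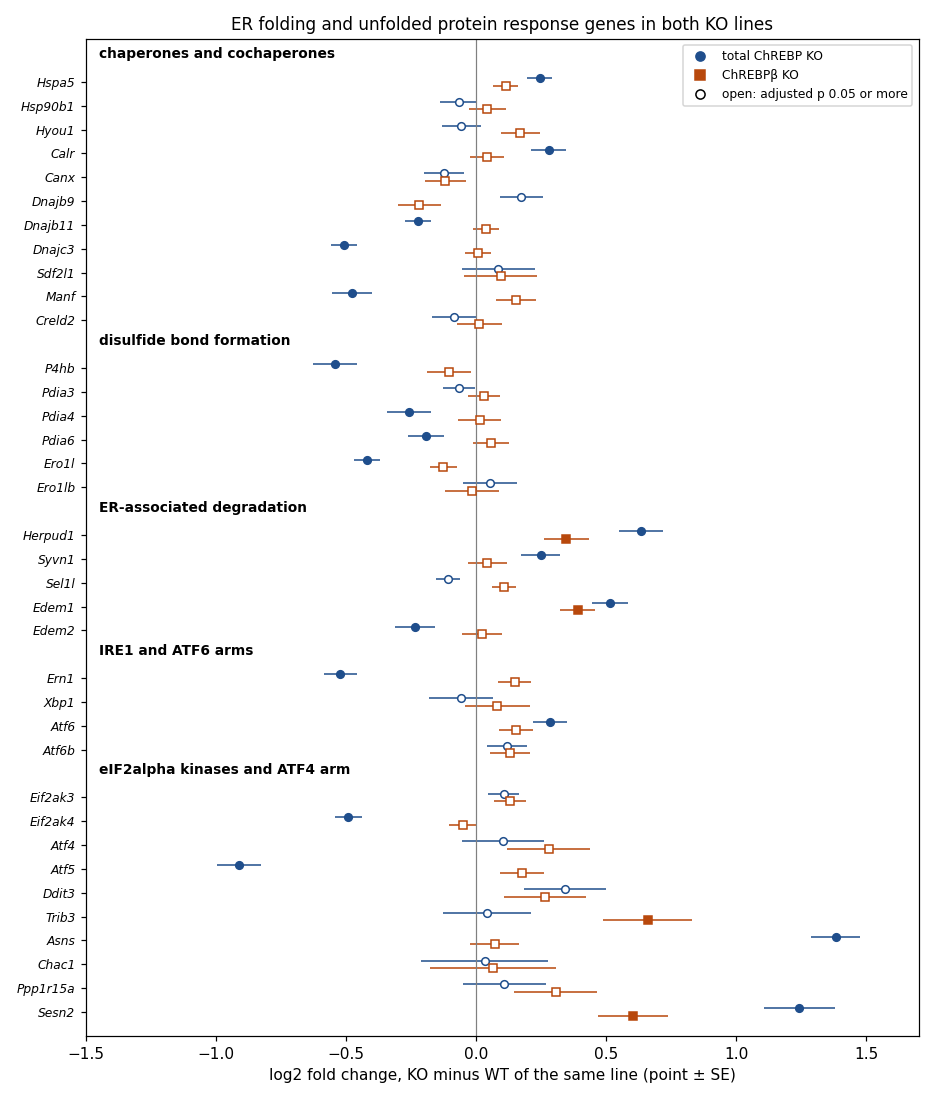
Log2 fold change of each of the 36 genes in total ChREBP KO (circles) and ChREBPβ KO (squares) against WT of the same line, with the standard error of the limma fit as bars and genes grouped by role. Filled symbols passed an adjusted p under 0.05, and the widest distance between the lines is that of Asns, at 1.38 in total ChREBP KO and 0.07 in ChREBPβ KO.

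Within the ATF4 arm, Asns and Sesn2 were raised, Atf5 was lowered and the messenger RNAs of Atf4 itself, Trib3, Chac1 and Ppp1r15a were not called in total ChREBP KO. Asns, which makes asparagine from aspartate and glutamine, was measured on chromosome 6 at 7625171 to 7625228 (mm9, the build of all probe positions here). Its lowest, median and highest log2 intensities were 12.07, 12.29 and 12.67 in total-line WT and 13.30, 13.71 and 13.94 in total ChREBP KO. They were 12.13, 12.37 and 12.71 in ChREBPβ-line WT and 12.25, 12.50 and 12.61 in ChREBPβ KO. All 8 total ChREBP KO arrays thus lay above all 24 others, while the ChREBPβ groups overlapped. The log2 fold change was 1.38 ± 0.09 (SE, n = 8 against 8, limma adjusted p 1.29e-13), a 2.61-fold difference, in total ChREBP KO and 0.07 ± 0.09 (adjusted p 0.844) in ChREBPβ KO. A further probe gave 1.27 and 0.07.

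Sesn2, a stress-induced restrainer of mTORC1 signalling (chromosome 4, 132048858 to 132048917), ran from 9.78 through a median of 9.90 to 10.31 in total-line WT and from 10.78 through 11.22 to 11.48 in total ChREBP KO. It ran from 9.46 through 9.72 to 10.24 in ChREBPβ-line WT and from 10.01 through 10.29 to 11.10 in ChREBPβ KO. The groups were separate in the total line and overlapped in the ChREBPβ line. Its log2 fold change was 1.24 ± 0.14 (limma adjusted p 5.18e-09), or 2.37-fold, in total ChREBP KO and 0.60 ± 0.14 (adjusted p 0.00996) in ChREBPβ KO. The latter call was lost with the slide as a fixed block (0.60, adjusted p 0.0806) and with the groups of the line fitted alone (adjusted p 0.075).

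Atf5 encodes a transcription factor that is translated under eIF2α phosphorylation and takes part in the mitochondrial stress response. On chromosome 7 at 52067627 to 52067686, its lowest, median and highest values were 17.15, 17.28 and 17.49 in total-line WT and 16.16, 16.37 and 16.56 in total ChREBP KO. They were 16.74, 17.03 and 17.33 in ChREBPβ-line WT and 16.97, 17.25 and 17.50 in ChREBPβ KO. Here the total ChREBP KO arrays lay below all others. Atf5 fell by 0.91 on the log2 scale (SE 0.08, limma adjusted p 1.46e-10) in total ChREBP KO, where a further probe fell by 1.04, and its value in ChREBPβ KO was 0.18 ± 0.08 (adjusted p 0.342). Asns and Atf5, which belong to the same arm, moved in opposite directions in the same mice.

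Trib3, a pseudokinase induced by ATF4 and CHOP that dampens AKT signalling (chromosome 2, 152163161 to 152163220), was the only gene called in ChREBPβ KO and not in total ChREBP KO. It ran from 9.12 through 9.53 to 10.02 in total-line WT, from 9.01 through 9.73 to 10.08 in total ChREBP KO, from 9.68 through 10.32 to 10.67 in ChREBPβ-line WT and from 10.49 through 10.88 to 11.55 in ChREBPβ KO. The total-line groups overlapped, and in the ChREBPβ line 1 KO array lay at a level reached by WT arrays. The log2 fold change was 0.66 ± 0.17 (limma adjusted p 0.0292) in ChREBPβ KO and 0.04 ± 0.17 (adjusted p 0.87) in total ChREBP KO. The difference of 0.62 ± 0.24 between those effects was not called (adjusted p 0.061). The call in ChREBPβ KO was lost with the slide as a fixed block (0.42, adjusted p 0.309) and without any 1 of 4 arrays: KO replicate 1 (adjusted p 0.0573), KO replicate 4 (0.0784), WT replicate 6 (0.0793) or WT replicate 8 (0.062).

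The remaining genes of the arm split between the kinases and the factors below them. Eif2ak3, which encodes the sensor kinase PERK (chromosome 6, 70855152 to 70855211), ran from 8.27 through 8.49 to 8.67 in total-line WT, from 8.46 through 8.59 to 8.75 in total ChREBP KO, from 8.49 through 8.76 to 8.95 in ChREBPβ-line WT and from 8.73 through 8.87 to 9.03 in ChREBPβ KO. On its brightest probe it was called in neither line, with log2 fold changes of 0.11 ± 0.06 (adjusted p 0.158) and 0.13 ± 0.06 (adjusted p 0.319). A further probe of Eif2ak3 was called higher in total ChREBP KO (0.17, adjusted p 0.0322), as was the mean of both probes (0.14, adjusted p 0.0282). Eif2ak4, which encodes the amino acid sensor GCN2, fell by 0.49 (SE 0.05, limma adjusted p 2.05e-09) on its brightest probe in total ChREBP KO, from between 9.19 and 9.46 to between 8.75 and 8.97 without overlap, and was at -0.05 in ChREBPβ KO. Its 4 probes disagreed in total ChREBP KO. Probe A_55_P1998392, which lies nearer the start of the gene, was higher by 0.30 (adjusted p 0.00713), another was not called, and the faintest was not well above background on any of the 8 total ChREBP KO arrays. Their mean gave -0.12 (adjusted p 0.0178), so the level of the gene as a whole was not settled.

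Atf4 messenger RNA ran from 15.21 to 15.57 in total-line WT, 15.21 to 15.61 in total ChREBP KO, 14.73 to 15.99 in ChREBPβ-line WT and 14.57 to 16.07 in ChREBPβ KO. Its fold changes of 0.10 ± 0.16 and 0.28 ± 0.16 were not called in either line (adjusted p 0.64 and 0.473), and the probes do not report on its translation. Ddit3, encoding the pro-apoptotic factor CHOP, was at 0.34 ± 0.16 (adjusted p 0.081) in total ChREBP KO on its brightest probe, while a further probe was called at 0.73 (adjusted p 0.000126). The mean of both Ddit3 probes was called higher as well (0.53, limma adjusted p 0.00135). Chac1, which degrades glutathione, was at 0.03 ± 0.24 and 0.06 ± 0.24 and varied most among replicates, from 8.63 to 10.54 within total-line WT alone. Ppp1r15a, the stress-induced subunit that returns eIF2α to its unphosphorylated form, was at 0.11 ± 0.16 and 0.31 ± 0.16. The pooled SD within groups had a median of 0.31 over the 10 genes of this arm, against 0.15 for the chaperones and 0.16 for all genes, so smaller changes are detectable in the folding genes than here.

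**Figure D2:**
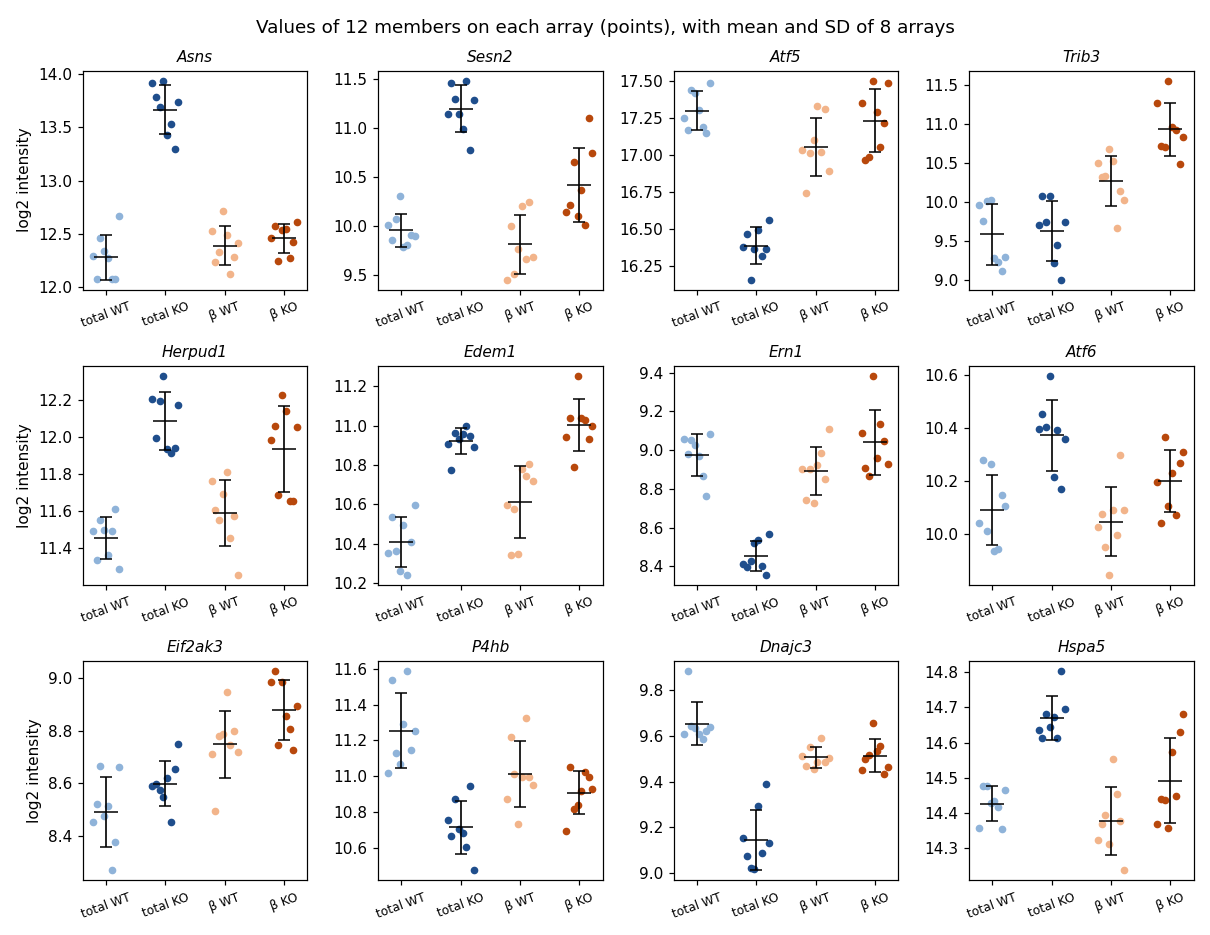
Log2 intensity of 12 genes on each of the 32 arrays (points), with the mean and SD of 8 arrays, by group. Asns, Sesn2 and Atf5 of total ChREBP KO stand clear of total-line WT, while Trib3 is highest in ChREBPβ KO.

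Of the sensors of the IRE1 and ATF6 arms, Ern1 was lower and Atf6 higher in total ChREBP KO. Ern1 encodes IRE1α, the kinase and nuclease that splices Xbp1 messenger RNA. On its brightest probe (chromosome 11, 106255965 to 106256024) it ran from 8.76 through 9.002 to 9.08 in total-line WT, from 8.36 through 8.42 to 8.57 in total ChREBP KO, from 8.73 through 8.90 to 9.11 in ChREBPβ-line WT and from 8.87 through 9.003 to 9.38 in ChREBPβ KO. The total-line groups were separate and the ChREBPβ groups overlapped. It fell by 0.52 (SE 0.06, limma adjusted p 4.21e-08) in total ChREBP KO and was at 0.15 ± 0.06 (adjusted p 0.263) in ChREBPβ KO. The fall was seen on 1 probe of 4, the others being at 0.03, -0.09 and 0.07 (adjusted p 0.755, 0.359 and 0.321), and the mean over the probes was -0.13 (adjusted p 0.0134).

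Atf6, a membrane-bound factor that is cleaved to its active form in the Golgi (chromosome 1, 172637679 to 172637738), ran from 9.94 through 10.07 to 10.28 in total-line WT, from 10.17 through 10.39 to 10.60 in total ChREBP KO, from 9.85 through 10.05 to 10.30 in ChREBPβ-line WT and from 10.04 through 10.21 to 10.37 in ChREBPβ KO. The groups overlapped in both lines, with all 8 total ChREBP KO arrays above the WT mean. The log2 fold changes were 0.28 ± 0.07 (limma adjusted p 0.000706) and 0.15 ± 0.07 (adjusted p 0.269). A far fainter probe at the other end of the gene was at -0.12 (adjusted p 0.46), and with the mean of both probes the call was lost (0.08, adjusted p 0.447). Atf6b, its paralog, was at 0.12 and 0.13, and Xbp1, whose spliced product drives the IRE1 arm, at -0.06 ± 0.12 and 0.08 ± 0.12, none of them called. The 3 Xbp1 probes lay between -0.12 and -0.06 in total ChREBP KO, and they do not separate the spliced from the unspliced form.

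Of the 5 genes of ER-associated degradation, 3 were called higher and 1 lower in total ChREBP KO, against 22.9% and 21.1% of all genes. In ChREBPβ KO 2 were called higher, against 1.37% of all genes. These 2, Herpud1 and Edem1, are with Sesn2 the 3 genes called in both lines, all in the same direction. Herpud1, a ubiquitin-like membrane protein that assembles the degradation complex (chromosome 8, 96919117 to 96919176), ran from 11.29 through 11.495 to 11.61 in total-line WT and from 11.92 through 12.09 to 12.33 in total ChREBP KO, without overlap. It ran from 11.26 through 11.59 to 11.81 in ChREBPβ-line WT and from 11.66 through 12.02 to 12.23 in ChREBPβ KO, where 3 KO arrays lay within the WT range. The log2 fold changes were 0.63 ± 0.09 (limma adjusted p 3.7e-07) and 0.35 ± 0.09 (adjusted p 0.0227), and a further probe gave 0.59 and 0.32, called in both lines. The call in ChREBPβ KO was lost with wash batch as a block (0.30, adjusted p 0.0651), with the slide as a block (0.24, adjusted p 0.34), with the line fitted alone (adjusted p 0.106) and without any 1 of 5 arrays of the line, namely KO replicates 4, 5 and 8 and WT replicates 6 and 8 (adjusted p 0.0502 to 0.0632).

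Edem1, a lectin-like protein that draws misfolded glycoproteins into degradation (chromosome 6, 108808920 to 108808979), ran from 10.24 through 10.39 to 10.60 in total-line WT and from 10.78 through 10.94 to 10.997 in total ChREBP KO. It ran from 10.34 through 10.66 to 10.80 in ChREBPβ-line WT and from 10.79 through 11.01 to 11.25 in ChREBPβ KO. The groups were separate in the total line, and in the ChREBPβ line the lowest KO array lay just below the highest WT array. The log2 fold changes were 0.51 ± 0.07 (limma adjusted p 1.96e-07) and 0.39 ± 0.07 (adjusted p 0.00087). They differed by -0.13 (adjusted p 0.382) on the brightest probe, but by -0.59 (adjusted p 1.34e-05) on the other, which was at 0.88 in total ChREBP KO and 0.29 in ChREBPβ KO. Edem1 kept its call in both lines under every alternative processing tried.

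The remaining genes of the group moved less. Syvn1, the ubiquitin ligase HRD1, was higher by 0.25 ± 0.07 (limma adjusted p 0.00708) in total ChREBP KO. Edem2, a mannose-trimming relative of Edem1, was lower by 0.23 (SE 0.08, adjusted p 0.0145). Sel1l, the partner of HRD1, was at -0.11 ± 0.05 (adjusted p 0.0545) on its brightest probe, just short of a call that it reached in 9 of 15 alternatives. Its further probes were at -0.004 and 0.17 (adjusted p 0.974 and 0.153), not called. Syvn1, Edem2 and Sel1l were not called in ChREBPβ KO, where their brightest probes lay between 0.02 and 0.11. The call of Syvn1 was lost with the slide as a block (adjusted p 0.102) and that of Edem2 when the median intensity was scaled to its 75th percentile (-0.16, adjusted p 0.0748), but not when the processed signal was.

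The ER chaperones did not move as 1 group. In total ChREBP KO, 2 of 11 were called higher, 3 lower and 6 were not called, and 0 of 11 were called in ChREBPβ KO, where 3 had an unadjusted p under 0.05. The share of 45.5% called in total ChREBP KO was near the 44.1% of all genes. Hspa5, which encodes BiP, the main chaperone of the ER lumen, ran from 14.35 through 14.43 to 14.48 in total-line WT and from 14.61 through 14.66 to 14.80 in total ChREBP KO. The arrays did not overlap, although the difference was small, with a log2 fold change of 0.24 ± 0.05 (limma adjusted p 9.35e-05). Its further probes gave 0.35 and 0.27, both called. In ChREBPβ KO it was at 0.11 ± 0.05 (adjusted p 0.25). Calr, the lectin chaperone calreticulin, was higher by 0.28 ± 0.07 (adjusted p 0.000922) in total ChREBP KO and at 0.04 in ChREBPβ KO.

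Dnajc3, a BiP cochaperone that also restrains PERK (chromosome 14, 119380429 to 119380488), was lowered in the same mice. It ran from 9.58 through 9.63 to 9.88 in total-line WT and from 9.02 through 9.11 to 9.39 in total ChREBP KO, without overlap, and from 9.45 through 9.49 to 9.59 and from 9.43 through 9.51 to 9.66 in ChREBPβ-line WT and KO, which overlapped. It fell by 0.51 (SE 0.05, limma adjusted p 5.39e-10) in total ChREBP KO and was at 0.01 ± 0.05 (adjusted p 0.98) in ChREBPβ KO. Manf, a secreted ER-resident survival factor, fell by 0.48 (SE 0.08, adjusted p 5.08e-06), with 0.37 on a further probe, and Dnajb11, a further BiP cochaperone, fell by 0.22 (SE 0.05, adjusted p 0.000438). Hsp90b1 (GRP94), Hyou1, Canx, Sdf2l1 and Creld2 lay between -0.12 and 0.08 on their brightest probes and were not called there. A further probe of Canx was called lower (-0.24, limma adjusted p 0.0191). A further probe of Hyou1 was at 0.34 (adjusted p 0.0577), not called. Dnajb9, a cochaperone that holds IRE1α inactive, was at 0.17 ± 0.08 (adjusted p 0.0914) on its brightest probe and called on the other (0.48, adjusted p 0.000166). The mean of both Dnajb9 probes was called higher (0.33, limma adjusted p 0.00254). Hsp90b1 and Canx were called lower when arrays were scaled to the 75th percentile of the median intensity (-0.19 and -0.23, adjusted p 0.0261 and 0.0243).

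Of the 6 genes of disulfide bond formation, 4 were called lower, 0 higher and 2 were not called in total ChREBP KO, with a median log2 fold change of -0.22. Of all genes, 21.1% were called lower and 22.9% higher, with a median of 0.01. P4hb, the classical protein disulfide isomerase (chromosome 11, 120422076 to 120422135), ran from 11.02 through 11.20 to 11.59 in total-line WT, from 10.47 through 10.69 to 10.94 in total ChREBP KO, from 10.73 through 10.99 to 11.32 in ChREBPβ-line WT and from 10.69 through 10.92 to 11.05 in ChREBPβ KO. The groups were separate in the total line and overlapped in the ChREBPβ line. It fell by 0.54 (SE 0.08, limma adjusted p 2.86e-06) and was at -0.11 ± 0.08 (adjusted p 0.671) in ChREBPβ KO. Ero1l (Ero1a), the oxidase that recharges these isomerases, fell by 0.42 (SE 0.05, adjusted p 4.11e-08), from between 10.86 and 11.29 to between 10.59 and 10.72. Pdia4 fell by 0.26 (adjusted p 0.0133) and Pdia6 by 0.19 (adjusted p 0.0252), the latter call being lost without total-line WT replicate 2 (adjusted p 0.0738) or replicate 5 (adjusted p 0.0521). Pdia3, the isomerase that works on glycoproteins with calnexin and calreticulin, and Ero1lb (Ero1b) were at -0.07 and 0.05. In ChREBPβ KO the 6 genes lay between -0.13 and 0.06 and 0 were called, 1 with an unadjusted p under 0.05.

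**Figure D3:**
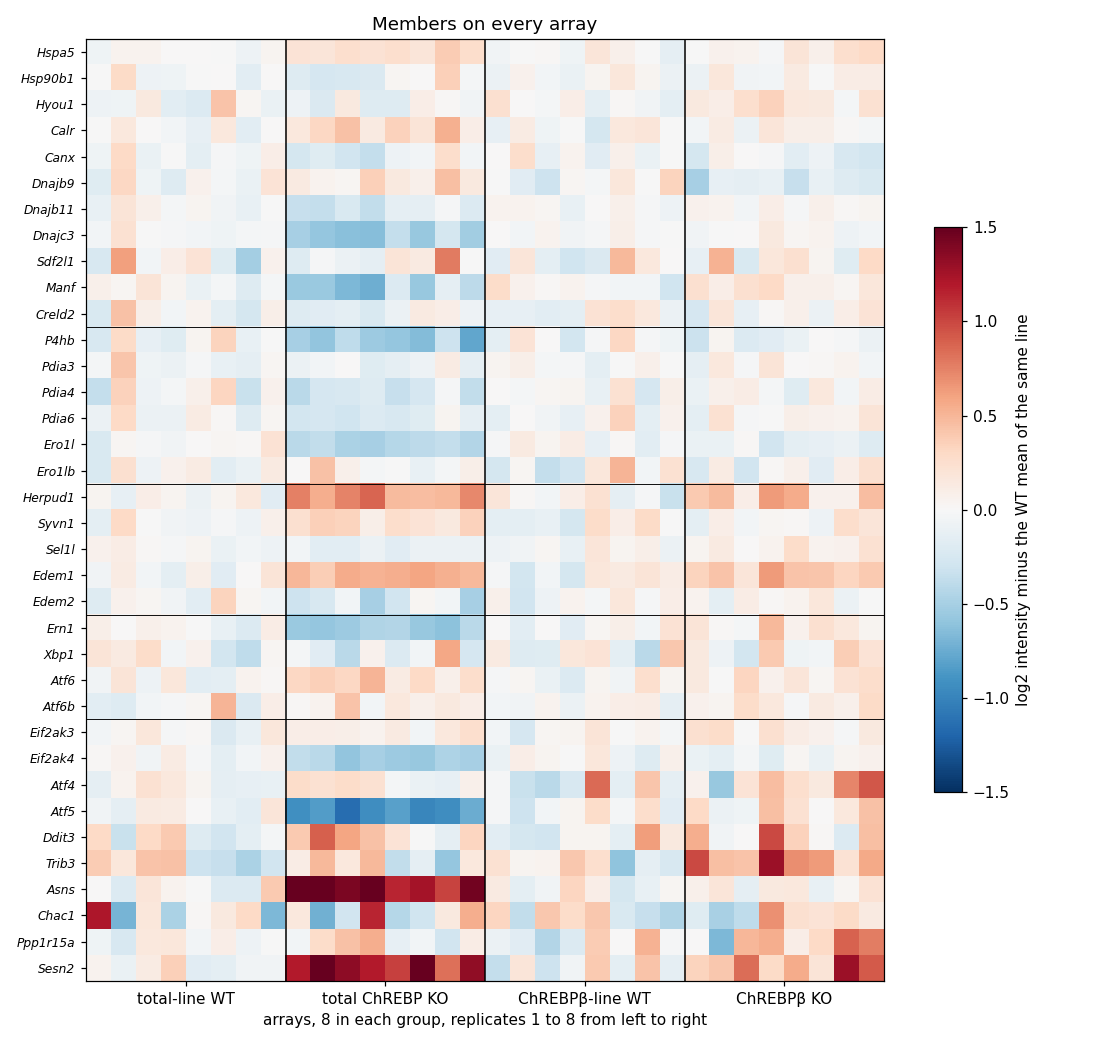
Difference of each array from the WT mean of its own line, in log2 units, for the 36 genes in rows, grouped by role, and 32 arrays in columns. Asns, Sesn2, Herpud1 and Edem1 are red and Atf5, Ern1, Dnajc3, P4hb and Eif2ak4 blue across the total ChREBP KO arrays, while Chac1 and Sdf2l1 vary within groups.

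The effect in ChREBPβ KO minus that in total ChREBP KO was tested as a contrast of its own, which called 12 of 36 genes, 9 higher and 3 lower. This is 33.3%, against 25.2% of all genes, 12.2% higher and 13.0% lower. The largest differences were those of Asns, at -1.31 ± 0.13 (limma adjusted p 4.22e-09), and Atf5, at 1.09 ± 0.12 (adjusted p 1.89e-08). Ern1 differed by 0.67, Manf by 0.63, Dnajc3 by 0.52, Eif2ak4 and P4hb by 0.44, Ero1l by 0.29, Dnajb11 by 0.26 and Sel1l by 0.22, each with the value of ChREBPβ KO above that of total ChREBP KO. Sesn2 differed by -0.64 (adjusted p 0.0138), its rise being smaller in ChREBPβ KO, and Dnajb9 by -0.39 (adjusted p 0.0135). Herpud1 differed by -0.29 ± 0.12 (adjusted p 0.0863), which was not called. When the probes of a gene were averaged, the differences of Eif2ak4 (0.10, adjusted p 0.213) and Sel1l (0.04, adjusted p 0.715) were lost, and that of Ern1 was 0.19 (adjusted p 0.0173), its 3 other probes not being called. Edem1 then gained a call (-0.36, limma adjusted p 0.00157).

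The WT groups of the lines differed too. Of 36 genes, 11 (30.6%) were called between ChREBPβ-line WT and total-line WT, 5 higher and 6 lower in the ChREBPβ line, against 38.9% of all genes, 24.8% higher and 14.1% lower. Ddit3 was higher by 0.74 ± 0.16 (limma adjusted p 0.000344) and Trib3 by 0.69 ± 0.17 (adjusted p 0.00177). Eif2ak3 was higher by 0.26 on its brightest probe and lower by 0.23 on the other (adjusted p 0.000992 and 0.00538), and Edem1 and Sel1l were higher by 0.21 and 0.17. Dnajb9 was lower by 0.53, Canx by 0.44, Manf by 0.29, Atf5 and P4hb by 0.24 and Dnajc3 by 0.15. On further probes the values were -0.14 for Dnajb9, -0.12 for Canx, -0.16 for Manf and -0.02 for Edem1, none of them called. Sel1l probe A_52_P107434 was called at 0.29, and A_51_P155675 was at -0.16, not called. With a gene's probes averaged, Edem1, Eif2ak3 and Sel1l lost their calls (0.09, 0.01 and 0.10, limma adjusted p 0.212, 0.856 and 0.0689). Dnajb9, Canx and Manf kept theirs. Further probes of Hyou1, Pdia3, Ern1 and Eif2ak4 were called where the brightest were not. All 10 skeletal muscle markers were lower in the ChREBPβ line, with a median of -6.39, all 6 fibroblast markers were lower and 4 of 6 endothelial markers higher. Line and tissue composition cannot be told apart in this comparison.

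Beyond the 36 genes, the neighbouring steps of the secretory pathway were taken from lists written for this purpose. In total ChREBP KO, 14 of 23 genes of the translocon and signal peptidase were called lower and 2 higher, 11 of 17 genes of the COPII coat and its cargo receptors lower and 2 higher, and 10 of 20 genes of the oligosaccharyltransferase and glycan trimming lower and 1 higher. Of all genes, 22.9% were called higher and 21.1% lower in this comparison, and these shares also stand beside the lists that follow. The median log2 fold changes were -0.20, -0.22 and -0.13, beside 0.01 for all genes. The largest falls were those of Srp54a, a subunit of the signal recognition particle (by 0.61), Lman1, a cargo receptor for glycoproteins (by 0.87), and Stt3b, a catalytic subunit of the oligosaccharyltransferase (by 0.73), and the largest rises those of Sec11a (0.14), Sec24d (0.56) and Tusc3 (0.66). With the slide as a fixed block the calls were 10 for the translocon list and 5 for the oligosaccharyltransferase list, while those of all genes fell from 44.1% to 33.5%. In ChREBPβ KO these 3 lists held 0 (2 with an unadjusted p under 0.05), 1 and 1 calls, the latter being Sec24d, higher by 0.38 (adjusted p 0.0445), and Alg12, lower by 0.19 (adjusted p 0.0381).

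Among 21 further genes of ER-associated degradation, 8 were called lower and 2 higher in total ChREBP KO. In that list Derl1, which forms part of the retrotranslocation channel, fell by 2.05 (SE 0.07, limma adjusted p 2.54e-21) in total ChREBP KO and by 0.25 (SE 0.07, adjusted p 0.0467) in ChREBPβ KO, and the highest was Rnf5 at 0.25. Of 22 other oxidoreductases and folding factors, 5 were called higher and 8 lower, from Pdia5 at 0.68 to Tmx1 at -0.82, and 0 were called in ChREBPβ KO, where 4 had an unadjusted p under 0.05. Of 13 genes of the eIF2 machinery, 1 was called higher (Ppp1r15b, the constitutive counterpart of Ppp1r15a, at 0.33) and 3 lower, the lowest being Eif2b1 at -0.31. The 34 other ATF4 targets measured are mainly amino acid transporters, synthetic enzymes and aminoacyl-tRNA synthetases. In total ChREBP KO 15 of them were called higher and 5 lower, with a median of 0.19. With the slide as a block, where 33.5% of all genes were called, 13 of these targets were called in all. The largest rise was that of Phgdh, the entry enzyme of serine synthesis, at 2.44 ± 0.16 (limma adjusted p 6.08e-14), and it was also called in ChREBPβ KO, at 0.93 ± 0.16 (adjusted p 0.000837), beside Vldlr, the very-low-density lipoprotein receptor, at 0.28 ± 0.07 (adjusted p 0.0348). Psph, the last enzyme of the same pathway, fell by 0.75 (adjusted p 2.44e-11) in total ChREBP KO and was at -0.12 in ChREBPβ KO, so the ATF4 targets outside the 36 genes were also of both signs.

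**Figure D4:**
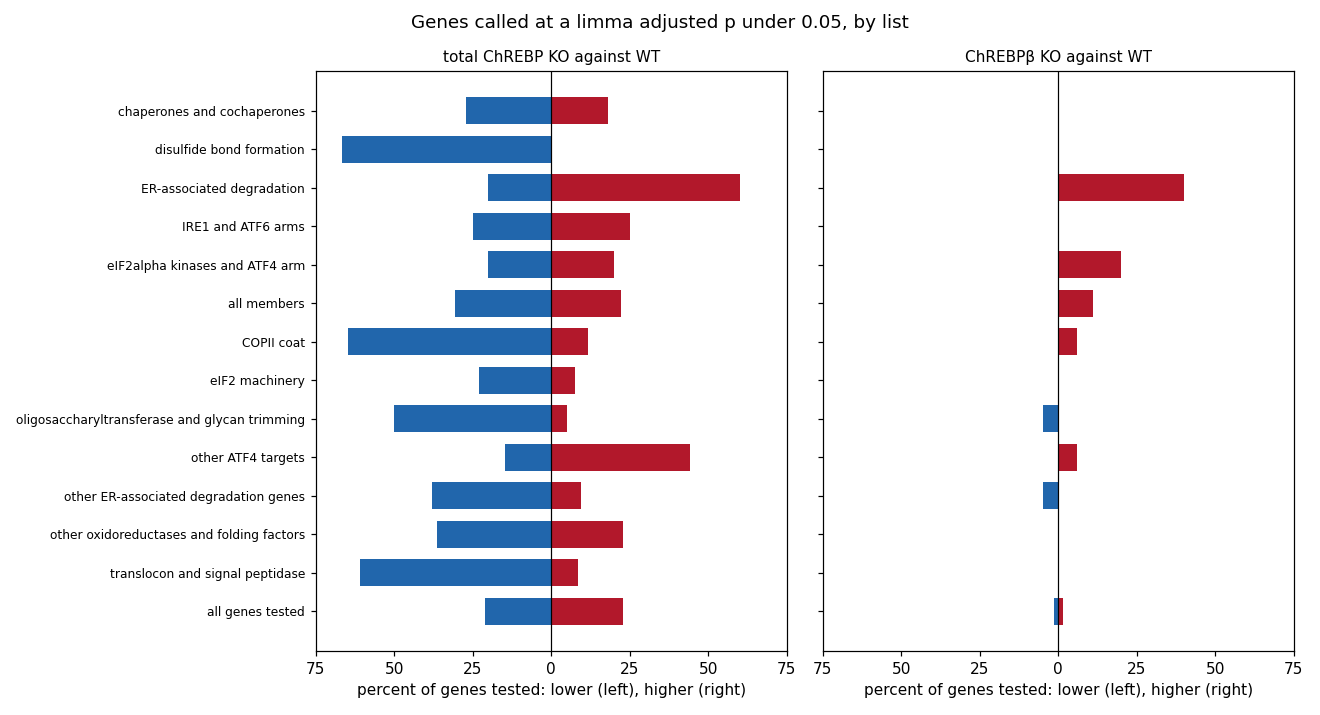
Percent of the genes of each list called higher (red, right) or lower (blue, left) at a limma adjusted p under 0.05, for total ChREBP KO (left panel) and ChREBPβ KO (right panel) against WT. In total ChREBP KO the lists of disulfide bond formation, COPII coat, glycosylation, translocon and other ER-associated degradation genes lean to lower values. The other ATF4 targets and the 5 degradation genes among the 36 lean to higher ones. The all-gene bars stand at 21.1% lower and 22.9% higher.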

How the data were processed

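Total RNA of brown adipose tissue was labelled with Cy3 and hybridised to 32 Agilent 1-colour arrays. Per the labels, images were read with Agilent Feature Extraction 10.10.1.1, and the files deposited by the authors give raw spot intensity, taken here as the median over pixels without any scaling across arrays. Beside these, the authors deposited log2 values after a filter on dim spots, quantile normalization and the median over spots of the same probe. Probe positions are those of mm9.

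The study's procedure was repeated from the scanner files. Control spots were dropped, and a spot had to carry the flags for found, positive and above background on 26 or more of 32 arrays or on 6 or more of a group (39985 of 59305 spots, 37306 probes). The mean absolute difference from the deposited log2 values was 0.00298. No spot was saturated (0 spots), and 2123 spots with an outlier flag were kept, since outliers were no part of the filter in the methods. Arrays have no read depth, and their number limits the precision. Each probe was fitted with limma 3.58.1 (functions lmFit and eBayes, R 4.3.3), with a mean for each of 4 groups and 1 spread from all 32 arrays, two-sided, with Benjamini-Hochberg adjustment over all probes. The fit was tested on simulated data. A fold change is a difference of log2 means.

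The 36 genes, their roles, the neighbouring lists, the marker lists and the rule for named genes (values by group for genes called in a KO comparison with an absolute log2 fold change of at least 0.5 and for the sensors, other genes by counts and ranges) were chosen with earlier results of these data known. Eif2ak4, Manf, Ero1l, Hspa5 and some further genes below that size were described in more detail after their values were seen. Of the ATF4 targets, Slc7a11 was dropped by the filter. The labels give 4 wash batches, each with arrays of all groups, and the files show 15 slides, of which 1 held both total-line groups and 2 both ChREBPβ-line groups. The labels do not say which mice shared a litter, and p values measure the spread between these mice. Alternatives were other scalings and background corrections, the deposited table, other filters, wash batch, slide or replicate number as a block, the line fitted alone, array weights, trend and robust moderation, other ways to represent a gene and leaving out each array.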

Additional observations from a re-analysis of the deposited data

Results flagged for a closer look

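A test of the difference itself by limma showed that 12 genes responded differently in the 2 KO lines. The effect in ChREBPβ KO minus that in total ChREBP KO was -1.31 for Asns, 1.09 for Atf5, 0.67 for Ern1, -0.64 for Sesn2, 0.63 for Manf, 0.52 for Dnajc3, 0.44 for Eif2ak4, 0.44 for P4hb, -0.39 for Dnajb9, 0.29 for Ero1l, 0.26 for Dnajb11 and 0.22 for Sel1l. With a gene's probes averaged, the differences of Eif2ak4 (0.10) and Sel1l (0.04) were no longer called. That of Ern1 shrank to 0.19 and kept its call. Edem1, not among the 12, was then called at -0.36 (limma adjusted p 0.00157).

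In 11 of 144 groups of 8 arrays, 1 array of a gene lay far from the others, with a gap to its neighbour that exceeded Dixon's critical value as a share of the group's range. Chance flags about 1 in 20 groups. In each case it was the highest array. Total ChREBP KO replicate 7 was such an array for Hspa5 (gap over range 0.562), Hsp90b1 (0.539), Sdf2l1 (0.606) and Pdia6 (0.527), and total-line WT replicate 2 for Hsp90b1 (0.639), Dnajc3 (0.804) and Pdia3 (0.707). Without total ChREBP KO replicate 7, Canx was called lower (-0.18, limma adjusted p 0.041), and without total-line WT replicate 2 the call of Pdia6 was lost (adjusted p 0.0738). The others were ChREBPβ-line WT replicate 6 for Pdia6 (0.563), total ChREBP KO replicate 2 for Ero1lb (0.652), and total-line WT replicate 6 (0.566) and total ChREBP KO replicate 3 (0.561) for Atf6b.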

How the results depend on the processing

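The count of genes called in total ChREBP KO lay between 15 and 23 under the 15 alternatives and between 18 and 21 when 1 array was left out, beside 19, and that for the difference between the KO effects between 10 and 17 and between 12 and 15, beside 12. The lowest counts, 15 and 10, came from a stricter filter that tested only 27 of the 36 genes. Under it 51.5% and 31.8% of all genes were called. With all 36 genes tested the lowest counts were 19 and 11. The count between the WT groups lay between 10 and 15 and between 9 and 13, beside 11. The count in ChREBPβ KO, 4 as reported, was 2 among the 27 genes whose probe passed every detection flag on all arrays, 1 when the slide was a fixed block, 2 when the line was fitted alone, and ran from 2 to 4 when 1 array was left out, being 2 without ChREBPβ KO replicate 4, ChREBPβ-line WT replicate 6 or ChREBPβ-line WT replicate 8. Herpud1 and Sesn2 were not among those 27 genes. Of all genes, 0.449% were called in ChREBPβ KO with the slide as a block and 1.38% with the line fitted alone. The line fitted alone gives no value for the difference between the KO effects. Replicate numbers are shared between groups, but the labels do not say what they mark. For that reason they were not taken to pair the mice. Same-numbered arrays correlated from -0.30 to 0.08 in the total line, with 0 of 8 over 0.1. In the ChREBPβ line they correlated from -0.20 to 0.53, with 6 of 8 over 0.1. The WT array that a KO array correlated best with bore its own number in 0 of 8 and 1 of 8 cases. What the numbers share in the ChREBPβ line was not tested. With the replicate number as a block the counts were 19, 4, 14 and 11 for total ChREBP KO, ChREBPβ KO, the difference and the WT groups. On the probe with the smallest p in place of the brightest, Ern1 turned from -0.08 to 0.26 between the WT groups (limma adjusted p 0.00294), because another probe then represents it. The cause of the other changes was not tested.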
